A study of Mus musculus with 3 samples.

Results

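Aortic cells that carried transcripts of both Chil3, a secreted chitinase-like lectin, and Plac8, a small cysteine-rich protein of myeloid and lymphoid cells, were selected from single-cell RNA profiles of mouse suprarenal aorta. A cell was taken where it held at least 1 unique molecular identifier (UMI, 1 counted transcript molecule) of Chil3, at least 2 of Plac8, less than 0.4% of its UMIs from C1qa, C1qb and C1qc together, and 0 UMIs of Siglech, Retnlg, Treml4 and Cd3e. This rule found 252 of the 5465 cells kept, of which 20 of 778 lay in the control library, 82 of 1848 in room air and 150 of 2839 in aneurysm. Control was a pool of aortas from 5 C57BL/6 mice on chow. Room air was a pool from 5 Apoe-/- mice on the C57BL/6 background, kept in room air on a Western (high fat) diet for 16 weeks. Aneurysm was a pool from 4 Apoe-/- mice on that background and diet, exposed to cigarette smoke over the 16 weeks, all with a measurable dilatation of the aorta. CD45+ CD31- leukocytes and CD45- CD31+ cells were sorted from each pool. Smoke-exposed mice without a dilatation were not analysed here. Each group is 1 library, so no value has a replicate, every interval covers counting error only, and no p-value is given. Loss of Apoe and the diet differ together between control and room air, and smoke and the choice of animals by their dilated aorta differ together between room air and aneurysm. These causes cannot be told apart.

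Classical monocytes are short-lived blood cells that leave the bone marrow through the chemokine receptor Ccr2, carry the surface protein Ly6C in mice and enter inflamed tissue. There they may become macrophages or antigen-presenting cells, while others turn into patrolling nonclassical monocytes with Treml4 and Ace. In hypercholesterolemic mice they feed the macrophages of the plaque, and they are drawn to the wall of an aneurysm. Chil3, Plac8, Hp and Ifitm6 are commonly used to mark them.

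Only part of the selected cells fitted the name of classical monocytes. After the cells were seen, the UMIs of 6 monocyte genes (Chil3, Hp, Ly6c2, F13a1, Fn1 and Vcan) were summed in each cell and set beside the sums of 15 lists of markers of other cell types. A cell whose monocyte sum was above each of these lists is called monocyte-marked here. That held for 18 of 20 control cells, 35 of 82 room air cells and 76 of 150 aneurysm cells, which were 90.0%, 42.7% and 50.7%. Of the 47 other cells in room air, 12 were led by markers of cDC2 (a type of conventional dendritic cell), 12 by those of cDC1, 7 by B cell, 5 by NK cell, 5 by neutrophil, 3 by plasma cell, 2 by T cell and 1 by fibroblast markers. The 74 others in aneurysm included 26 led by B cell, 15 by cDC2, 10 by cDC1 and 7 by plasma cell markers. In control 1 of the 2 others was led by cDC2 and 1 by neutrophil markers, and the latter cell alone held 1486 UMIs of S100a8. The monocyte sum and the nearest other list were within 1 UMI of each other in 0, 4 and 10 cells. The defining B cell gene Cd79a stood at 0 CPM (UMIs per 1000000 UMIs of the cells) in control against 196 in room air and 315 in aneurysm over all selected cells. Each result is therefore given for the monocyte-marked cells, with the value over all selected cells where both differ. Markers of other types were low in the monocyte-marked cells, where the choice of cells kept each list below the monocyte sum. They moved between libraries there too. Jchain of plasma cells (0, 415 and 29.8 CPM), Ccl5 of NK and T cells (32.5, 509 and 82.0 CPM) and S100a8 of neutrophils (16.2, 183 and 151 CPM) were called higher in room air, and Jchain and Ccl5 lower in aneurysm. Over all selected cells, with the neutrophil-led control cell among them, S100a8 was called lower in room air. The T and NK cell genes Cd3d, Cd3g and Nkg7 were also called lower and Cd79a (0, 54.4 and 142 CPM) higher in aneurysm. The summed T cell list took 0.0065%, 0.025% and 0.0088% of their UMIs, the NK cell list 0.0065%, 0.062% and 0.015%, the B cell list 0.0081%, 0.021% and 0.033% and the neutrophil list 0.015%, 0.034% and 0.028%. The part of such RNA in the changes below was not tested.

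**Figure D1:**
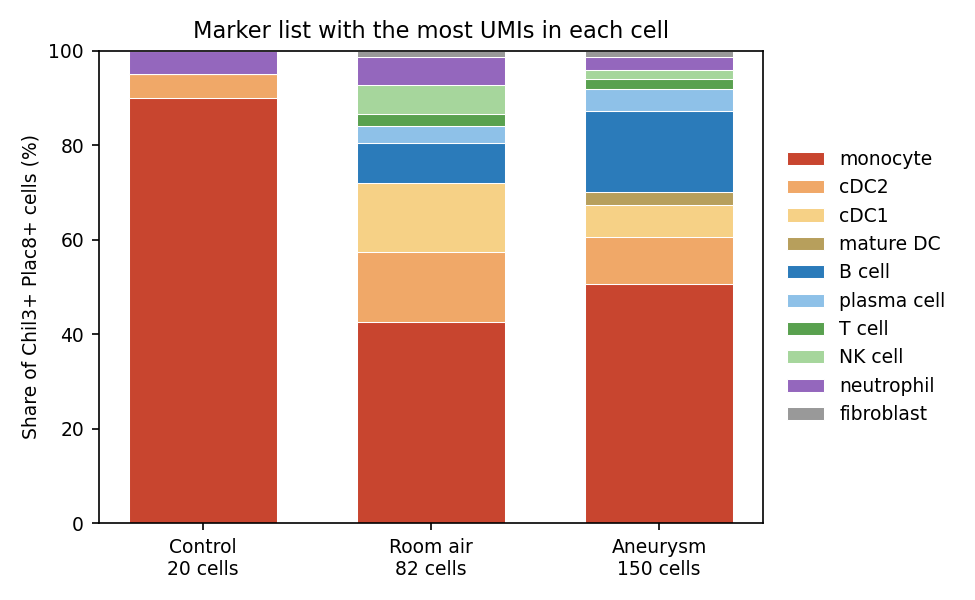
Stacked bars give, for each library, the share of the Chil3+ Plac8+ cells (vertical axis, percent) whose UMIs were led by the 6 monocyte genes or by each list of markers of another cell type. The monocyte part covers 90.0% of the 20 control cells, 42.7% of the 82 room air cells and 50.7% of the 150 aneurysm cells.

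Chil3 is 1 of the 6 genes that set the monocyte-marked cells apart, so its counts in both kinds of cell are a description. Of the selected cells, 3 of 20 (control), 38 of 82 (room air) and 66 of 150 (aneurysm) held a single UMI of Chil3. Among cells that were not monocyte-marked, 34 of 47 in room air and 59 of 74 in aneurysm had that single UMI. The neutrophil-led control cell held 88 Chil3 UMIs, the most in that library, and a plasma cell-led aneurysm cell held 63. The monocyte-marked cells had a median of 8.5 Chil3 UMIs in control against 11 in room air and 21 in aneurysm, and a median of 14, 15 and 24 Plac8 UMIs. Their median depths were 3575.5, 5716 and 6053 UMIs. Scaled to the depth of each cell, the medians were 2452, 2354 and 3633 CPM for Chil3 and 3893, 2973 and 3813 CPM for Plac8. Rule-defined B cells, which should lack Chil3, carried a UMI of it in 0%, 18.0% and 11.7% of cells, at median depths of 1326, 2441.5 and 2529 UMIs. The selected cells themselves had median depths of 3739.5, 6182 and 6571 UMIs. Of the B cells so defined, 13 in room air and 35 in aneurysm were themselves among the selected cells.

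The limits of the rule also left monocyte-marked cells outside. The requirement of 0 UMIs for Siglech, Retnlg, Treml4 and Cd3e removed 8 of 28 cells in control against 55 of 137 in room air and 113 of 263 in aneurysm, of which 8, 19 and 59 were monocyte-marked. Of these genes Treml4, the nonclassical monocyte gene, removed the most monocyte-marked cells, with 6, 13 and 38. Just inside the Chil3 limit, the cells with 1 UMI held 326, 45.0 and 114 CPM of Hp, and just outside it, the cells with 0 UMIs held 185.5, 78.7 and 50.2 CPM. Of the cells with 0 UMIs, 10, 9 and 41 were monocyte-marked. Cells with exactly 2 Plac8 UMIs numbered 1, 15 and 22, and those with exactly 1, which were left out, numbered 1, 32 and 31. Of those left out, 0, 3 and 11 were monocyte-marked. Between 0.2% and 0.4% of C1q UMIs there were 0, 25 and 15 selected cells, and 1, 20 and 17 cells lay outside that limit, from 0.4% to 0.8%. Of these outside cells 0, 7 and 9 were monocyte-marked.

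Chil3 (ENSMUSG00000040809) lies on the minus strand of mm10 chromosome 3, from 106147554 to 106167564, and Plac8 (ENSMUSG00000029322) on the minus strand of chromosome 5, from 100553725 to 100572245. Hp, which encodes the hemoglobin-binding protein haptoglobin, lies at 109575128 to 109579172 on chromosome 8, and Ifitm6, of the family of interferon-induced transmembrane proteins, at 141015699 to 141017924 on chromosome 7. Within the last 500 bases of their transcripts, 7.2% of the windows of read length in Chil3 also occur in its neighbour Chil4, to which 0 UMIs were counted in the monocyte-marked cells of each library. The same share was 6.7% for Ly6c2 with Ly6c1, 1.74% for Lyz2 with Lyz1 and 35.7% for Lilrb4a with Lilr4b. Of the windows of Lilr4b 0.0% occurred in another gene compared. Because windows of Lilrb4a do occur in Lilr4b, both are reported as uncertain. The promoter windows of the 2 genes of the rule, of a marker that was lower in room air and of the receptor that led the aneurysm comparison are shown, each 250 bases before to 50 after the transcription start, on the minus strand, 5′ to 3′ (RefSeq, GRCm38.p6). Capitals mark matches to GAGGAA, the core bound by the myeloid factor PU.1, or to TTGCNNAA, the form bound by C/EBP factors, on both strands (TTCCTC and TTNNGCAA read on the strand shown).
Chil3, chr3:106167515-106167814: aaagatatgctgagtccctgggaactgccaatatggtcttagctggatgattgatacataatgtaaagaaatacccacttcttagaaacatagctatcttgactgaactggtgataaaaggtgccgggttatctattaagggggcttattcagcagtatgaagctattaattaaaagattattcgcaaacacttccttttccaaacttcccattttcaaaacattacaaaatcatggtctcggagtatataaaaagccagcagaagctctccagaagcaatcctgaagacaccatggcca
Plac8, chr5:100572156-100572455: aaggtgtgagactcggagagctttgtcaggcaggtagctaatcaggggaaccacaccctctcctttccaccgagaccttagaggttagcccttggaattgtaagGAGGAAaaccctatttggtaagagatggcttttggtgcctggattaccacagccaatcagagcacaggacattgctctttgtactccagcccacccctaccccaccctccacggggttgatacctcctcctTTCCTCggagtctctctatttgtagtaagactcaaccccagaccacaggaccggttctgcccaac
Ifitm6, chr7:141016843-141017142: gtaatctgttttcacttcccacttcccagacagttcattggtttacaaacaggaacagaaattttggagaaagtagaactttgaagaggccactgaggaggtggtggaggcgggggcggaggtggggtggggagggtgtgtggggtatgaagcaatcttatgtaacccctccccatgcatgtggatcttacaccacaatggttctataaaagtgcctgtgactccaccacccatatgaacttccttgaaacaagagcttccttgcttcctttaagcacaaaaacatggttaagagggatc
Clec4e, chr6:123289822-123290121: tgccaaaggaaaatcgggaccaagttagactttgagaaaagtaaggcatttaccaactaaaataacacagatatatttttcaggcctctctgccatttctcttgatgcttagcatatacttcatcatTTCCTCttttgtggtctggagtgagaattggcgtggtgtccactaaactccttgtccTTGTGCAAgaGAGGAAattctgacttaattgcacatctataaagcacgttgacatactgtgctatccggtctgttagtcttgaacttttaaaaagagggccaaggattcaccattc
Plac8 held 2 matches to GAGGAA in this window and 0 to TTGCNNAA, while a second Plac8 window in the table, at chr5:100563047-100563346, held 0 and 1. Clec4e held 2 and 1, with the 2 motifs 2 bases apart at one place. These letters are not in the windows of Chil3 and Ifitm6. Of 32851 promoter windows in the RefSeq table, 28.3% hold the first motif and 10.8% the second, so a match is common and is only a description.

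Over all selected cells, the share among kept cells was 2.57% for control (95% exact Clopper-Pearson interval 1.58% to 3.94%), 4.44% for room air (3.54% to 5.48%) and 5.28% for aneurysm (4.49% to 6.17%). Monocyte-marked cells made up 2.31% for control (1.38% to 3.63%), 1.89% for room air (1.32% to 2.62%) and 2.68% for aneurysm (2.12% to 3.34%). The intervals of control and aneurysm do not overlap for all selected cells, whereas all 3 overlap for the monocyte-marked ones. When every cell was thinned to 1500 UMIs, selected cells were 3.395%, 2.06% and 3.13% and monocyte-marked cells 3.09%, 1.52% and 2.29%. That thinning left out 130 shallower control cells and 0 in the other libraries. It can also remove the UMIs of genes required at 0. Selected control cells rose from 20 to 22, so cells that the rule had left out entered, and the thinned cells are not the same population. Thinned to 1000 UMIs, with no cell left out, selected cells were 1.93%, 1.52% and 2.82%. Sorting joined leukocytes and CD31+ cells in numbers the gate set, and over cells with a UMI of the leukocyte gene Ptprc the selected share was 3.63%, 5.08% and 5.76%.

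The libraries differed in depth. Control held 2568192 UMIs, room air 9998517 and aneurysm 16698309, and the selected cells held 72783, 550886 and 1131327 of these. Among monocyte-marked cells, 3 UMIs, the floor for a gene not detected, correspond to 48.8 CPM in control against 14.8 in room air and 5.59 in aneurysm. A gene with 1 or 2 UMIs in control (16.2 or 32.5 CPM) lies under that floor, and its ratio has a wide interval. Control and room air shared 4 barcodes and room air and aneurysm 5, of which 1 was a selected cell. The knocked-out gene Apoe, an apolipoprotein made by macrophages, had 7166 CPM in control against 34.6 in room air and 5.59 in aneurysm in the monocyte-marked cells, with 7 and 3 UMIs left in the Apoe-/- libraries. This matches the labels.

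Room air was compared with control to see what loss of Apoe and the Western diet together go with. Lyz2, Ifitm6, Trf and Ms4a6c were lower in room air and C5ar1, Cd14, Tgfbi and F10 higher. Of the classical monocyte list 8 of 19 tested genes were lower and 2 higher, and of the lists of macrophage differentiation and of lipid-associated macrophages 7 of 16 and 7 of 10 were higher and 0 lower. Of 1883 genes with at least 20 UMIs over both libraries in monocyte-marked cells, 162 were higher (8.60%) and 101 lower (5.36%), where a call needs a ratio of at least 1.5-fold and an interval that leaves out 1. The median log2 ratio of all these genes was 0.07. The split was 141 higher and 124 lower with median-of-ratios scaling, 54 and 35 of 611 genes when cells were thinned to 1500 UMIs, and 145 and 163 of 1101 genes with free RNA per droplet subtracted, which turned the excess of higher genes. Over all selected cells 302 of 3773 were higher (8.00%) and 196 lower (5.19%), with a median of 0.26. With median-of-ratios scaling, which moves these log2 ratios by 0.20, the split was 204 higher and 312 lower.

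Among the 19 tested genes of the classical monocyte list (20 in all), 8 were lower and 2 higher in the monocyte-marked cells, and their median log2 ratio was -0.59. Without the 5 genes of this list that chose the cells (Hp, Ly6c2, F13a1, Fn1 and Vcan), 5 of 15 were lower and 2 higher, with a median of -0.57. Lyz2, the lysozyme of phagocytes, had 70620 CPM in control against 30480 in room air and 28200 in aneurysm and was 2.32-fold lower (95% interval 2.23 to 2.41). The summed level of control stood far above those of both other libraries, which lay close together. Single cells overlapped, from 21830 to 95360 CPM in control, 3693 to 62160 in room air and 4353 to 94290 in aneurysm. Ifitm6 had 1089 CPM in control against 366 in room air and 458 in aneurysm, from 67, 74 and 246 UMIs, and was 2.98-fold lower (95% interval 2.11 to 4.20). Mgst1, a microsomal glutathione transferase, had 845 CPM in control against 371 in room air and 406 in aneurysm and was 2.28-fold lower (95% interval 1.57 to 3.29). For both genes control was again high and the Apoe-/- libraries low. Ms4a4c, a membrane protein of the MS4A family, had 1105 CPM in control against 618 in room air and 739.6 in aneurysm and was 1.79-fold lower (95% interval 1.31 to 2.42). Wfdc17, a secreted protein with a WAP domain, had 2567 CPM in control against 1701 in room air and 2072 in aneurysm, a call (1.51-fold lower) that ended when the cell with the most Wfdc17 UMIs was left out of each library. Hp, Ly6c2 and F13a1, the transglutaminase factor XIII A, were among the genes that chose the monocyte-marked cells, so that their 1.58-fold, 1.61-fold and 1.62-fold lower levels are a description. Hp had 1137 CPM in control against 722 in room air and 782 in aneurysm, and Ly6c2 had 1186 CPM in control against 737 in room air and 861 in aneurysm.

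The receptor Ccr2, through which monocytes leave the marrow, had 1154 CPM in control against 776 in room air and 797 in aneurysm, a ratio of room air to control of 0.673 (95% interval 0.505 to 0.903) that missed the 1.5-fold limit. The integrin Itgam (276 CPM in control against 158 in room air and 278 in aneurysm) and the calcium-binding S100a4 (829 CPM in control against 855 in room air and 982 in aneurysm) were not called in this comparison. Nor were Fn1, Gda, Ifitm3, Fcgr1, Clec4a1 and Vcan, the last with 1 UMI in control. Csf1r, the receptor for the monocyte growth factor CSF1, was 1.73-fold higher (95% interval 1.07 to 2.95), with 325 CPM in control against 564 in room air and 471 in aneurysm. Cd14, the co-receptor for endotoxin, is described with the higher genes. Over all selected cells 14 of 19 genes of the list were lower and 1 higher, with a median log2 ratio of -1.03, in libraries where 2 of 20 cells (control) and 47 of 82 (room air) were not monocyte-marked.

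Outside that list, the lower genes included Ms4a6c (2405 CPM in control against 1107 in room air and 1477 in aneurysm, 2.17-fold lower) and Ccl6, a chemokine of myeloid cells (2291 CPM in control against 1157 in room air and 1244 in aneurysm, 1.98-fold lower). Trf, which encodes the iron carrier transferrin, had 618 CPM in control against 193 in room air and 455 in aneurysm and was 3.20-fold lower (95% interval 1.99 to 5.14). Klra2, a lectin-like receptor, had 325 CPM in control against 104 in room air and 95.01 in aneurysm and was 3.13-fold lower (95% interval 1.61 to 6.07). In Trf the aneurysm cells stood between the other libraries, whereas in Klra2 both Apoe-/- libraries were alike. Clec4a2, Cd177, Tmem165 and Lmo4 completed the 12 leading lower genes. Of these 12 in the monocyte-marked cells, 8 (Apoe, Lyz2, Ifitm6, Klra2, Mgst1, Ccl6, Ms4a6c and Trf) were also among the 12 leading lower genes of all selected cells.

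**Figure D2:**
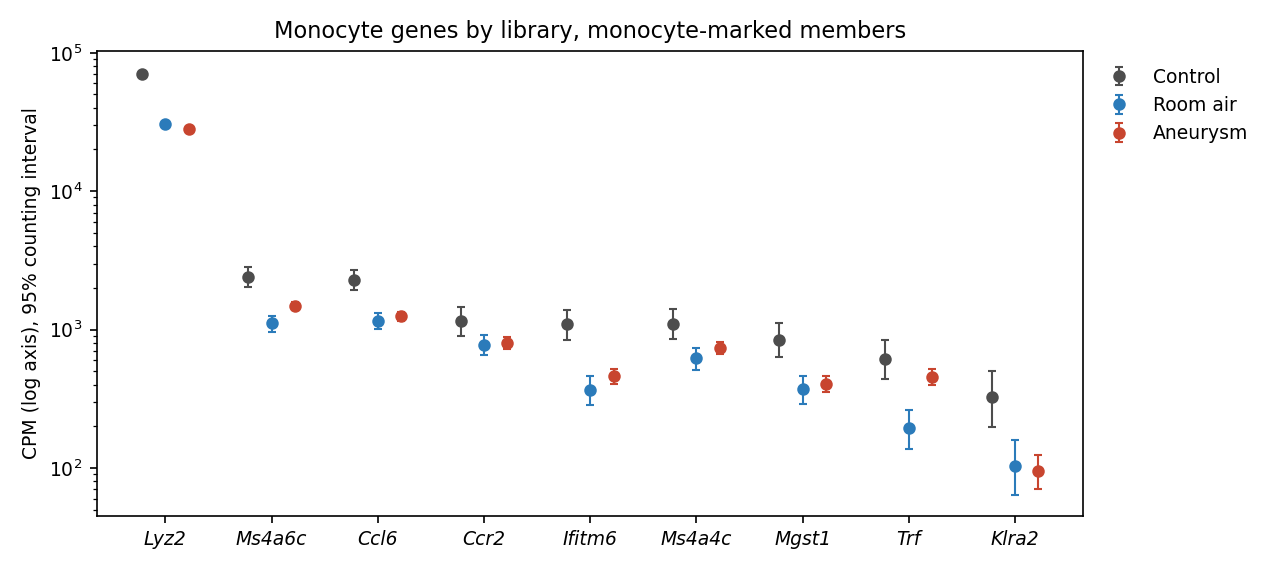
Levels of 9 genes in monocyte-marked cells (vertical axis, CPM on a log axis) in control (18 cells), room air (35 cells) and aneurysm (76 cells), with points for the summed UMIs and bars for the exact Poisson 95% interval. Control is the highest of the 3 libraries for each gene, from 70620 CPM of Lyz2 down to 325 CPM of Klra2.

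Among genes higher in room air, C5ar1, the receptor for the complement fragment C5a, led the list. It had 16.2 CPM in control against 292 in room air and 409.9 in aneurysm, from 1, 59 and 220 UMIs, and the ratio to control was 17.9 (95% interval 3.10 to 721). The gene was read in 1 of 18, 24 of 35 and 56 of 76 cells, and its free RNA per droplet, read from B and T cells, came to 13.7, 25.3 and 23.1 CPM. Cd14 had 48.8 CPM in control against 306 in room air and 643 in aneurysm, from 3, 62 and 345 UMIs, and was 6.29-fold higher (95% interval 2.05 to 31.3) in room air than in control. Both genes were low in control and high in both Apoe-/- libraries. Tgfbi, a matrix protein induced by TGF-beta, had 471 CPM in control against 1513 in room air and 1667 in aneurysm and was 3.21-fold higher (95% interval 2.19 to 4.88). F10, which encodes coagulation factor X, had 65.0 CPM in control against 297 in room air and 334 in aneurysm and was 4.56-fold higher (95% interval 1.69 to 17.3). These levels hardly differed between room air and aneurysm, where neither gene was called. Nfe2l2, the transcription factor NRF2 of the antioxidant response, had 81.2 CPM in control against 321 in room air and 334 in aneurysm and was 3.96-fold higher (95% interval 1.61 to 12.6). Socs3, a feedback inhibitor of cytokine signaling, had 32.5 CPM in control against 163 in room air and 162 in aneurysm and was 5.02-fold higher (95% interval 1.28 to 43.2). Lilr4b, an immunoglobulin-like receptor reported as uncertain above, was 4.97-fold and Pla2g7, a lipoprotein-associated phospholipase, 2.11-fold higher. Adam8, Gngt2, Pglyrp1 and Thbs1 completed the leading 12. Over all selected cells Pglyrp1 was called lower in room air instead. Without the leading cell of each library Adam8 was not called. Thinned to 1500 UMIs, Lyz2, Ifitm6, Ms4a6c, Ccl6 and Trf were still called lower and Cd14, Tgfbi, F10, Pglyrp1 and Pla2g7 still higher in room air. The calls of Mgst1 and Ms4a4c ended, at log2 ratios of -0.80 and -0.80, as did those of Hp (-0.67), F13a1 (-0.64), Csf1r (0.90) and Gngt2 (0.72). Klra2, Nfe2l2, Socs3, Lilr4b, C5ar1, Thbs1 and Adam8 held under 20 UMIs there and were not tested, C5ar1 with 19 UMIs in room air and 0 in control.

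The inflammatory list (22 genes) had 11 tested genes, of which 6 were higher and 2 lower, with a median log2 ratio of 1.61 when genes without UMIs in control stood at the floor. The monocyte chemokine Ccl2 had 16.2 CPM in control against 717 in room air and 1041 in aneurysm, from 1, 145 and 559 UMIs in 1, 18 and 31 cells. Its ratio of room air to control was 44.1 (95% interval 7.79 to 1754). Expression was uneven: 33.8% of the Ccl2 UMIs in room air and 55.6% of those in aneurysm came from 1 cell, and without these cells the levels were 486 and 477 CPM. Thbs1, the matricellular protein thrombospondin 1, had 16.2 CPM in control against 158 in room air and 270.1 in aneurysm and a ratio of 9.73 (95% interval 1.63 to 396). Cxcl2, a neutrophil chemokine, had 16.2 CPM in control against 208 in room air and 205 in aneurysm, and Ccl12 had 0 CPM in control and 178 in room air, at least 3.65-fold higher against the floor. Il1rn, the antagonist of the interleukin 1 receptor, had 0 UMIs in control and 30 in room air, of which 56.7% came from 1 cell, and it was no longer called without that cell. The 2 lower genes were the chemokines Ccl6 and Ccl9.

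Macrophage genes were higher as well. Of 16 tested genes of the macrophage differentiation list, 7 were higher and 0 lower (median log2 ratio 0.89). The lysosomal proteases Ctsb (1105 CPM in control against 4212 in room air and 3264 in aneurysm, 3.81-fold higher) and Ctsd (130 CPM in control against 1142 in room air and 1028 in aneurysm, 8.79-fold higher) were among them, as was the asparaginyl endopeptidase Lgmn (228 CPM in control against 1221 in room air and 1265 in aneurysm, 5.37-fold higher). The tetraspanin Cd63 had 32.5 CPM in control against 692 in room air and 335 in aneurysm. The list of lipid-associated macrophages had 10 tested genes, 7 higher and 0 lower (median 1.58 with the floor). Fabp5, a fatty acid binding protein, had 32.5 CPM in control against 836 in room air and 633 in aneurysm, and Plin2, the coat protein of lipid droplets, had 260 CPM in control against 687 in room air and 691 in aneurysm (2.64-fold higher). Spp1, which encodes osteopontin, had 0 UMIs in control and 1725 and 2033 CPM in room air and aneurysm, but 50.1% and 66.5% of these UMIs came from 1 cell each, without which 885 and 704 CPM were left. Free RNA per droplet reached 422 CPM of Spp1, 169.7 of Fabp5, 893 of Ctsb and 116 of Plin2 in room air. The summed macrophage list took 0.46%, 1.21% and 1.03% of the UMIs of monocyte-marked cells by library. In T cells it took 0.15%, 0.53% and 0.39%, and in B cells 0.23%, 0.66% and 0.36%. The lipid-associated list took 0.37%, 0.98% and 1.02%, in T cells 0.10%, 0.37% and 0.44% and in B cells 0.13%, 0.76% and 0.20%. Medians over monocyte-marked cells were 0.45%, 0.75% and 0.73% for the first list and 0.40%, 0.58% and 0.54% for the second. How far macrophage RNA bears on these lists was not tested. The lipid uptake and efflux list had 9 tested genes, 4 higher (Fabp5, Plin2, the cholesterol exporter Abcg1 and the lysosomal lipase Lipa) and 0 lower.

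The MHC class II list, which presents antigen to CD4 T cells, had 7 tested genes, 3 higher and 0 lower. H2-Ab1 had 1787 CPM in control against 4049 in room air and 3989 in aneurysm and was 2.27-fold higher (95% interval 1.85 to 2.79) in room air. The T cells of the same libraries, which should lack it, held 1899, 5040 and 4354 CPM, more than the monocyte-marked cells in each library, and 1 control cell gave 64.5% of the control UMIs. Without the leading cell of each library the ratio was 5.12. The difference in H2-Ab1 is therefore not read as one of expression. Over all selected cells 8 of 10 genes of this list were higher, in libraries where dendritic and B cell markers led more of the cells. The interferon response list had 13 tested genes, 2 higher and 2 lower, and the pattern recognition list had 10, 2 higher (Cd14 and the lectin Clec4n) and 1 lower (Casp1).

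**Figure D3:**
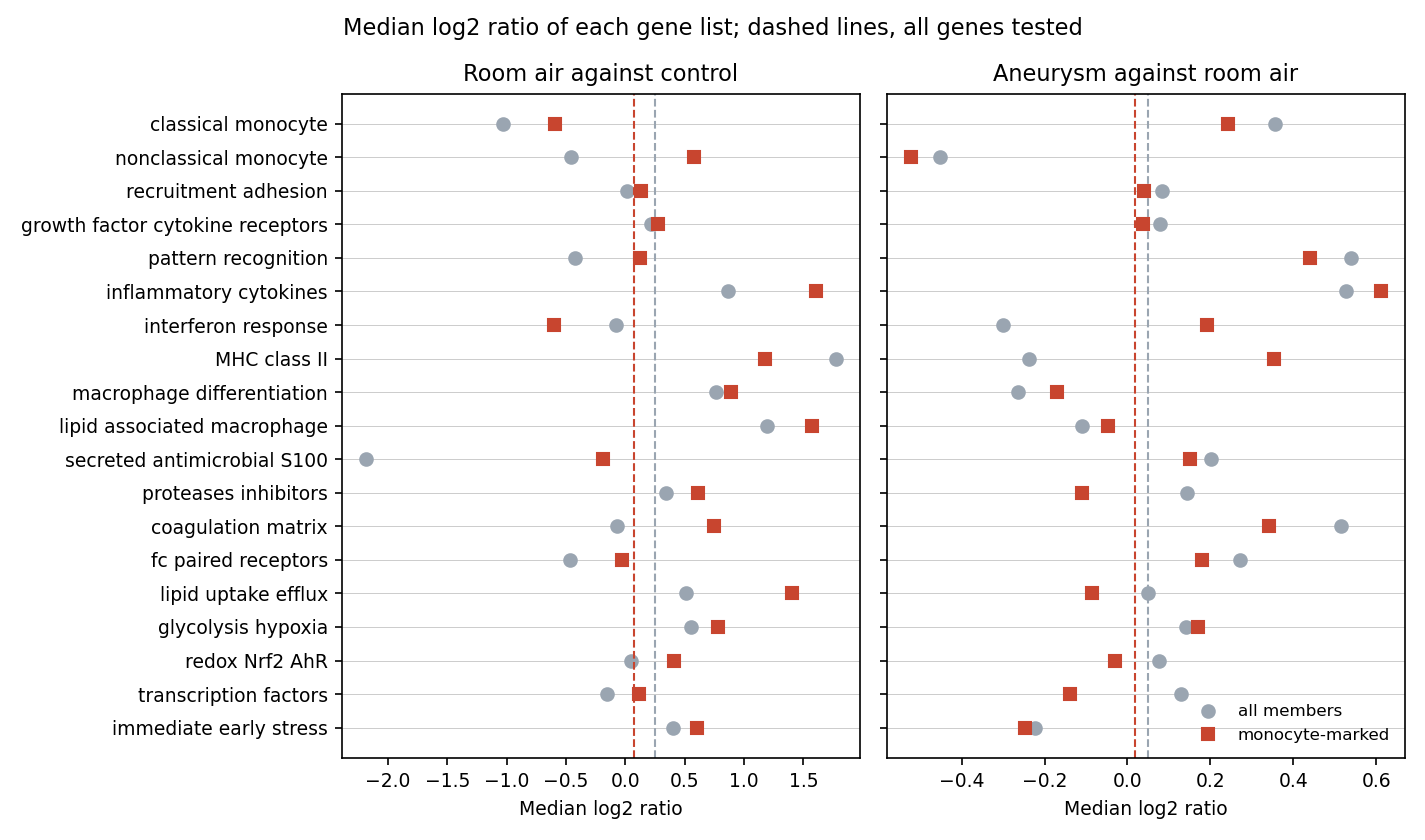
Points give the median log2 ratio (horizontal axis) of each list with at least 5 tested genes in both comparisons, with room air over control on one side and aneurysm over room air on the other, for all selected cells (circles) and monocyte-marked cells (squares), with genes at 0 UMIs placed at the floor. Dashed lines mark the median of all genes tested, 0.07 and 0.02 for monocyte-marked cells, and the inflammatory list lies to the right of its line in both panels at 1.61 and 0.61.

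Aneurysm was compared with room air to see what smoke exposure and a dilated aorta together go with among Apoe-/- mice. Clec4e, Il1rn, Il1b, Ccr1 and Cd14 were higher in the aneurysm cells, and Hpgd, Ace and Smpdl3a were lower. Of the pattern recognition list 5 of 15 tested genes were higher and 1 lower. In monocyte-marked cells 147 of 4192 genes were higher (3.51%) and 144 lower (3.44%), with a median log2 ratio of 0.02. The split was 138 and 157 with median-of-ratios scaling and 371 and 174 of 2702 genes with free RNA per droplet subtracted. Over all selected cells 300 of 6695 were higher (4.48%) and 216 lower (3.23%), with a median of 0.05.

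Of 15 tested pattern recognition genes (21 in the list), 5 were higher and 1 lower, with a median log2 ratio of 0.44. Clec4e, the C-type lectin Mincle that senses mycobacterial glycolipid and proteins of dead cells, had 81.2 CPM in control against 98.9 in room air and 313 in aneurysm. It was read in 3 of 18, 12 of 35 and 53 of 76 cells and was 3.17-fold higher (95% interval 1.99 to 5.32) in aneurysm than in room air, with free RNA of 6.90 and 8.53 CPM. Here the level of room air lay near that of control, and aneurysm was higher. The control level rested on few UMIs in 3 cells, so control and room air are not read as alike. Its partner lectin Clec4d had 32.5 CPM in control against 109 in room air and 188 in aneurysm and was 1.73-fold higher (95% interval 1.08 to 2.88). Clec4n, the lectin Dectin-2, had 16.2 CPM in control against 203 in room air and 389 in aneurysm and was 1.92-fold higher (95% interval 1.37 to 2.75). Cd14 was 2.10-fold higher (95% interval 1.60 to 2.79) in aneurysm, a call that ended when the cells were thinned to 1500 UMIs (log2 ratio 0.43), while that of Clec4e stood (log2 ratio 1.73). Tlr2, a receptor for bacterial lipopeptides, had 146 CPM in control against 109 in room air and 210.5 in aneurysm and was 1.94-fold higher (95% interval 1.22 to 3.21), and Tlr7 (54.4 CPM in room air and 20.5 in aneurysm) was lower, from 11 and 11 UMIs.

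Among cytokines, 5 of 15 tested inflammatory genes were higher and 1 lower, with a median log2 ratio of 0.61. Il1b, which encodes interleukin 1 beta, had 162 CPM in control against 297 in room air and 568 in aneurysm, in 2, 11 and 44 cells, and was 1.92-fold higher (95% interval 1.45 to 2.57). Its antagonist Il1rn had 0 CPM in control against 148 in room air and 369 in aneurysm, in 0, 8 and 35 cells, and was 2.49-fold higher (95% interval 1.69 to 3.78). Both were highest in aneurysm, and 90.0% of the control UMIs of Il1b came from 1 cell. Room air against control was not called for Il1b, but without the leading cell of each library its ratio was 10.3 (95% interval 1.73 to 417). Without those cells Il1rn was 4.25-fold higher in aneurysm, and thinned to 1500 UMIs it was no longer called. Thbs1 was 1.71-fold higher (95% interval 1.16 to 2.59) and Nfkbia, the inhibitor of NF-kB that the pathway itself induces, had 247 CPM in room air and 439.7 in aneurysm and was 1.78-fold higher (95% interval 1.31 to 2.46). Ccl7, another monocyte chemokine, had 227 CPM in room air and 524 in aneurysm, but 70.1% of its UMIs in aneurysm came from 1 cell, and without the leading cell of each library the ratio was 1.05 and not called. Ccl12 had 178 CPM in room air and 27.9 in aneurysm and was 6.37-fold lower (95% interval 3.401 to 12.5). Tnf had 4 and 3 UMIs and Il6 0 and 2, at or near the floor.

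Other genes among the 12 leading higher ones were Tgm2, the tissue transglutaminase (89.0 CPM in room air and 242 in aneurysm, 2.72-fold), Trf (2.36-fold) and Ccr1, a chemokine receptor (148 CPM in room air and 320.4 in aneurysm, 2.16-fold). Il13ra1, a chain of the interleukin 4 and 13 receptors, was 3.34-fold higher (95% interval 1.53 to 8.64), from 7 and 62 UMIs. Cd300lf, an immune receptor for lipids, was 2.58-fold higher, and Dmkn, Lrg1 and Vill, which completed the list, had 3 or fewer UMIs in room air. Lilr4b and Lilrb4a were 1.88-fold and 1.68-fold higher, and some windows of read length in Lilrb4a also occur in Lilr4b. Of the classical monocyte list 3 of 20 genes were higher, with Itgam and Cd14 among them, and 0 lower, with a median log2 ratio of 0.24. Itgam was 1.75-fold higher (95% interval 1.19 to 2.66). Ifitm6, Hp, Ly6c2, Lyz2, Mgst1, Ms4a4c and Ccr2 were not called between these libraries. Their ratios of aneurysm to room air lay between 0.925 (Lyz2) and 1.25 (Ifitm6).

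**Figure D4:**
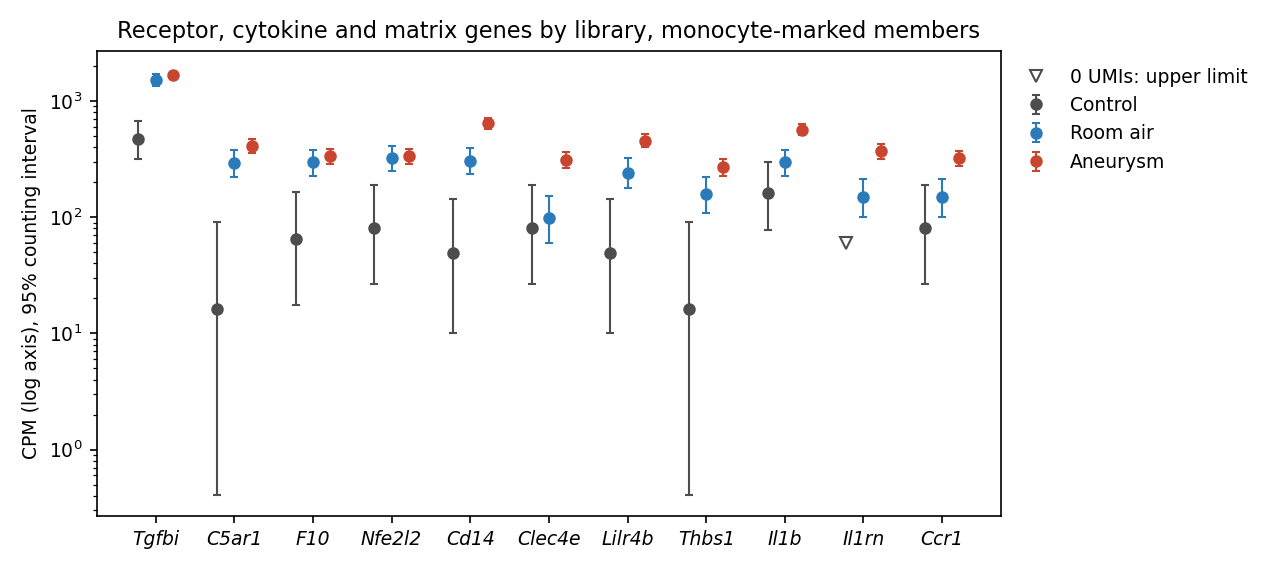
Levels of 11 genes in monocyte-marked cells (vertical axis, CPM on a log axis) in control (18 cells), room air (35 cells) and aneurysm (76 cells), with exact Poisson 95% intervals as bars and an open triangle at the upper limit where no UMI was counted. Clec4e differs chiefly between room air (98.9 CPM) and aneurysm (313 CPM), and Tgfbi between control (471 CPM) and room air (1513 CPM).

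Among lower genes, Hpgd, the enzyme that breaks down prostaglandins, came first. It had 162 CPM in control against 104 in room air and 14.9 in aneurysm, from 10, 21 and 8 UMIs, and was 6.96-fold lower (95% interval 2.96 to 18.2) in aneurysm, below both other libraries. Ace, the angiotensin-converting enzyme and a marker of nonclassical monocytes, had 98.9 CPM in room air and 35.4 in aneurysm and was 2.79-fold lower (95% interval 1.42 to 5.53). The fractalkine receptor Cx3cr1 had 276 CPM in control against 173 in room air and 109.9 in aneurysm and was 1.57-fold lower (95% interval 1.00 to 2.43), a call that ended when the leading cell was left out of each library. Of the 11 tested nonclassical genes these 2 were lower and 0 higher, with a median log2 ratio of -0.52, in cells that the rule had required to hold 0 UMIs of the nonclassical gene Treml4. Smpdl3a, a phosphodiesterase related to acid sphingomyelinase, had 1007 CPM in control against 836 in room air and 484 in aneurysm and was 1.73-fold lower (95% interval 1.41 to 2.10). G6pdx, the first enzyme of the pentose phosphate pathway, was 2.40-fold lower (95% interval 1.22 to 4.69), and Nadk, the kinase that makes NADP, 1.79-fold lower (95% interval 1.30 to 2.46). Ift22, Rab3d, Sirpb1a, Igsf6, D17Wsu92e, Tmcc1 and Tppp3 completed the leading 12, of which Ift22, Rab3d, Tmcc1 and Tppp3 were not called without the leading cell of each library. The macrophage differentiation list had 17 tested genes, 3 lower (Cd63, Cd81 and the transcription factor Maf) and 0 higher.

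Over all selected cells the aneurysm comparison also called 8 of 29 tested interferon response genes lower, with Ifi205, Gbp2, Cxcl9 and Cxcl10 in front, and 2 higher. In room air this list took up to 5.45% of the UMIs of a selected cell, against a median of 0.31%. The highest monocyte-marked cell there stood at 1.57%. The part of that extreme cell in these calls was not tested. In monocyte-marked cells only Bst2, the antiviral protein tetherin, was lower and Irf7 higher among 22 tested genes, and the log2 ratio of Ifi205 had the opposite sign. Likewise 9 of the 12 leading higher genes of all selected cells in room air were not called higher in monocyte-marked cells, among them Cd79a, Ebf1 and Fcrla of B cells and Naaa and Plbd1 of dendritic cells. Genes with too few UMIs to be tested count as not called here. Cd79a was such a gene, with 0 CPM in control and 54.4 in room air. The part that cells led by other markers have in the counts over all selected cells was not tested.

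The monocyte-marked cells varied among themselves in MHC class II. Its 10 genes took from 0.05% to 9.05% of the UMIs of a control cell, 0.50% to 9.26% of a room air cell and 0.18% to 12.1% of an aneurysm cell, with medians of 0.36%, 0.88% and 0.52%. At or above 2%, a limit set after seeing these values, were 1 of 18 control cells (5.56%, exact interval 0.14% to 27.3%), 6 of 35 room air cells (17.1%, 6.56% to 33.6%) and 16 of 76 aneurysm cells (21.1%, 12.5% to 31.9%). These intervals overlap. Among T cells, which should lack these genes, 3 of 64 (4.69%), 28 of 301 (9.30%, 6.27% to 13.2%) and 47 of 498 (9.44%, 7.02% to 12.3%) lay at or above 2%, at the lower median depths of 2031, 2680 and 2889.5 UMIs. The intervals of T cells and monocyte-marked cells overlap in control and room air, so no difference from this background is read there. In the monocyte-marked cells at or above 2% the median Chil3 count was 1, 4.5 and 12.5 UMIs, against 10, 14 and 32 in the rest. Across the 18, 35 and 76 cells of each library, Spearman's rho between the Chil3 and MHC class II shares of UMIs was -0.50, -0.48 and -0.24. That between Plac8 and the interferon response list was 0.49, 0.44 and 0.35. Between Plac8 and the macrophage differentiation list it was 0.40 in control against -0.54 in room air and -0.48 in aneurysm. These cells share a library, and Chil3 and Plac8 chose them, which cuts off their low values, so the medians and correlations describe the selected cells and nothing beyond them.

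**Figure D5:**
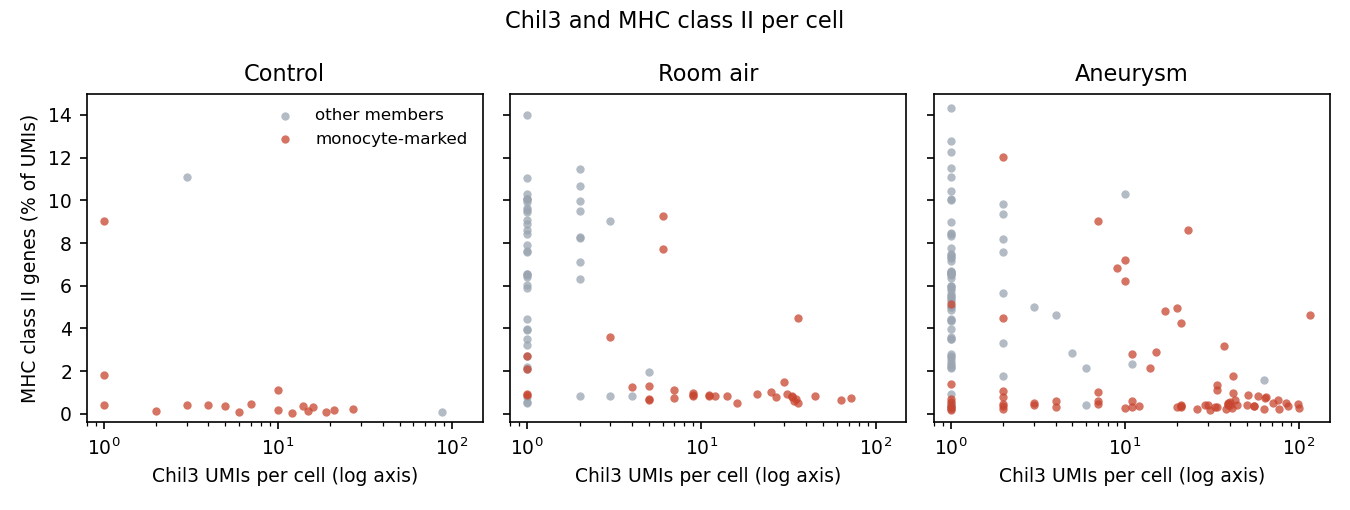
Each point is 1 Chil3+ Plac8+ cell, with its Chil3 UMIs on a log horizontal axis and the percent of its UMIs from 10 MHC class II genes on the vertical axis, in control, room air and aneurysm. Monocyte-marked cells (red) reach 116 Chil3 UMIs and mostly lie below 2% MHC class II, and the other cells (grey) gather at 1 Chil3 UMI and reach 14.3%.

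The 3 most like cell types were defined by other rules, so that what follows is a description. Nonclassical monocytes (at least 1 UMI of Treml4) numbered 17, 48 and 84, cDC2 (at least 2 UMIs of Cd209a) 28, 59 and 124, and C1q-high macrophages 327, 502 and 569. The nonclassical rule set no limit on Chil3 or Plac8. Of the cells with Treml4 that met the Chil3, Plac8 and C1q limits, 6, 13 and 38 were monocyte-marked. These may be among the nonclassical monocytes, so that group can be a mixture. Ifitm6 stood at 448, 349 and 255 CPM in nonclassical monocytes, beside 1089, 366 and 458 in monocyte-marked cells. Lyz2 was 25840, 15410 and 14410 CPM in nonclassical monocytes and 9091, 2282 and 3268 in cDC2, with control highest in each. Clec4e had 13.98, 325 and 306 CPM in nonclassical monocytes, where room air was already as high as aneurysm, and 4.68, 39.5 and 44.0 CPM in C1q-high macrophages. C5ar1 in those macrophages went the other way from the monocyte-marked cells, with 743, 374 and 381 CPM. Differences between cell types in these changes were not tested.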

How the data were processed

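The authors deposited whole-number UMI counts per gene and cell barcode, made with the 10x Genomics 3′ v2 kit and run through Cell Ranger with STAR against mm10, as the submitters' processing notes state. Versions are not given in the sources used here. There are 27998 genes in the matrices, and gene order and barcode lists were read as deposited by the authors. Barcodes were kept from 200 detected genes upward and up to 10% mt- UMIs, which left 5465 cells, with median depths of 2704, 3898.5 and 4481 UMIs in control, room air and aneurysm. Symbols that several IDs share were read from the lowest Ensembl ID. UMIs were summed per library and expressed as CPM with exact Poisson 95% intervals, and ratios had exact conditional binomial 95% intervals. Genes were tested at 20 UMIs or more over both libraries and called at 1.5-fold or more with an interval that leaves out 1. Free RNA per droplet was the lower of the mean UMIs per B cell and per T cell, scaled to the selected cells, and the rule for named genes used the lower of their CPM. Scrublet (scanpy 1.11.5) at an expected rate of 0.8% per 1000 barcodes marked 4 selected cells, which were kept in the main values. Its automatic threshold marked 1, 2 and 0 cells and was not used. Scripts ran in Python 3.11.15 with scipy 1.17.1 and were tested on simulated data. The selected cells and the 39 gene lists were chosen with earlier results of these data known, and 6 genes of the lists were not matched by symbol. Named genes were the first 12 in each direction by the interval bound nearest to 1, with free RNA at most 25% of the higher level and no cell over 25% of its UMIs, then leading genes of each list, and others chosen after their values were seen. One list gene is not reported here. Alternatives covered the limits of the rule, scaling, depth, filters, doublets and free RNA.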

Additional observations from a re-analysis of the deposited data

How the results depend on the processing

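The share of selected cells in room air and aneurysm (4.44% and 5.28%) was 1.89% and 2.68% for monocyte-marked cells, 2.38% and 2.96% with at least 2 Chil3 UMIs, 2.00% and 3.31% with a UMI of Ly6c2 required, 6.17% and 6.38% with 1 UMI of Plac8, and 2.06% and 3.13% or 1.51% and 2.82% after thinning to 1500 or 1000 UMIs. C1q below 0.2% left 3.08% in room air. Genes called higher and lower in room air (302 and 196) became 162 and 101 in monocyte-marked cells, 94 and 77 after thinning, 197 and 106 with Ly6c2 required, and 1361 and 547 by fold alone. There were 105 lower with 2 Chil3 UMIs and 150 higher with free RNA as CPM subtracted. Median-of-ratios scaling, which shifted log2 ratios by 0.20, gave 204 higher and 312 lower. In aneurysm (300 and 216) the counts were 147 higher in monocyte-marked cells, 98 and 73 after thinning, 164 higher with Ly6c2, 197 higher with 2 Chil3 UMIs, 140 lower with 50 UMIs over both libraries, 943 and 562 by fold alone, 716 higher with free RNA as CPM subtracted, and 629 and 340 with it subtracted per droplet. Lists whose median lay 1.5-fold or more from that of all genes in aneurysm fell from 11 to 5 in monocyte-marked cells. The cause of these shifts was not tested. Over 134 single values and 17 settings, 1592 of 1838 recomputed values kept their direction and side of the threshold. The fold alone and the limits of 5 and 50 UMIs leave each ratio unchanged. All of their 73, 73 and 64 values were kept, which says nothing about stability. In monocyte-marked cells 75 values were kept, while 30 moved, 11 were weaker, 1 was stronger and 3 turned in sign. Among these recomputed values, signs turned for 4. In monocyte-marked cells these were Plbd1 in room air (log2 -0.19) and Ifi205 (0.26) and Rab7b (0.18) in aneurysm. The last was Ly6i with Ly6c2 required (0.45). The monocyte-marked cells, the per-droplet background, the fold alone and the runs without 1 cell were chosen after seeing the data. Control, with 61541 UMIs in 18 monocyte-marked cells, sets the limit of what could be detected there. No paired analysis was possible because each group is 1 library.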
